A study of Homo sapiens with 19 samples.

Results

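Molm13, a line of acute myeloid leukaemia (AML) cells, carried 35069 H3K27ac peaks on chromosomes 1 to 22 and X. Of these, 9467 (27%, 95% Wilson interval 26.5 to 27.5) shared no base with an H3K27ac peak of HL-60, OCI-AML3 or K562. These Molm13-only peaks are the subject of the results below. They were chosen by the overlap itself: a peak of Molm13 was kept when not a single base of it lay inside a peak of the other 3 lists, and the 25602 peaks that were overlapped are called the remaining Molm13 peaks. The 4 lists together held 130757 peaks. HL-60 and OCI-AML3 are also AML lines, while K562 comes from chronic myelogenous leukaemia and is erythroid in character. Molm13 and HL-60 were not transduced. OCI-AML3 and K562 carried dCas9-KRAB, a catalytically dead Cas9 fused to a repressor domain, together with an empty guide vector that holds no targeting sequence, so the line and the vector cannot be told apart in their lists. The same antibody was used in all 4. Each line was represented by 1 library, without replicates, so no test between lines could be made, and the intervals given here cover counting error only. The depth in reads is unknown, since the lists give regions and not counts.

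H3K27ac, the acetylated form of lysine on the tail of histone H3, is laid down at active promoters and enhancers. Promoter acetylation is largely shared between cell types, whereas enhancer acetylation differs from one cell type to another and tends to lie within introns or between genes. MOLM-13 cells are monocytic in character and carry a fusion of KMT2A, a histone methyltransferase, to MLLT3, together with an internal duplication in the receptor tyrosine kinase FLT3. The fusion protein is known for holding a set of haematopoietic regulators, among them the HOXA genes, MEIS1, MEF2C and PBX3, in an active state.

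The centres of 5 Molm13-only peaks are printed here because they were the most enriched members at the loci to which the results return. Each run holds 200 bases of hg38, read 5′ to 3′. Broad peak lists give no summit, so the midpoint of the peak was used. Capitals mark letters that match any of the 11 motifs searched.
MEF2C intron, chr5:88870670-88870869, plus strand: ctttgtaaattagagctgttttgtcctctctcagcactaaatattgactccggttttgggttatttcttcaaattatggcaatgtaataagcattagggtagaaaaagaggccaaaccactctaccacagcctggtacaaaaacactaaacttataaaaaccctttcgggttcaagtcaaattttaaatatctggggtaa
IL2RA intron, chr10:6045821-6046020, plus strand: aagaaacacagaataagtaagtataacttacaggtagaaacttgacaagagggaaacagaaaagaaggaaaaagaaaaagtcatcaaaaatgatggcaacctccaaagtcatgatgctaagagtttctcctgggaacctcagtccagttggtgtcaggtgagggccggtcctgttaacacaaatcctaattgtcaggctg
PTGIS upstream, chr20:49573184-49573383, plus strand: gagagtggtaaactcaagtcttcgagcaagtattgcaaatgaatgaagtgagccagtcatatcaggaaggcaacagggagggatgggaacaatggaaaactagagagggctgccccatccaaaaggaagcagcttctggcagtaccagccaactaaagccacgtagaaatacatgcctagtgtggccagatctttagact
PBX3 intron, chr9:125826508-125826707, plus strand: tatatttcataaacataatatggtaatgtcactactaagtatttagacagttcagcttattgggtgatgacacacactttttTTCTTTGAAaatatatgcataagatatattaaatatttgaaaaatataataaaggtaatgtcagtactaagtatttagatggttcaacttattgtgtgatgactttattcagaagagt
ETV6 intron, chr12:11861741-11861940, plus strand: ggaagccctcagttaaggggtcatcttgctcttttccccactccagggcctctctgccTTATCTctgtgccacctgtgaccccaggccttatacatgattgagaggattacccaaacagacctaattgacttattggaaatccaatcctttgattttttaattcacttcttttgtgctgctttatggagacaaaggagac
The capitals are a STAT match (TTCNNNGAA) at PBX3 and a GATA match (AGATAA, here on the opposite strand) at ETV6. The windows at MEF2C, IL2RA and PTGIS held none of the 11 motifs.

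The Molm13-only peaks were narrow and weakly enriched. As the rule favours peaks with little room for overlap, these values are a description. Their median width was 608 bp (quartiles 330 and 992), beside 1457 bp (860 to 2425) for the remaining Molm13 peaks, and together they covered 6.88 Mb, beside 51.3 Mb. Their median fold enrichment over the background of the peak caller was 3.17 (3.01 to 3.46, highest 8.61), beside 4.38 (3.47 to 6.11, highest 22.7). A q-value under 0.001 was reached by 746 members (7.88%) and by 16313 remaining peaks (63.7%). At the other end, 14.9% of the members and 2.64% of the remaining peaks had a q-value above 0.05. With all Molm13 peaks divided into 4 equal bins of fold enrichment, 57.1% of the weakest bin were Molm13-only, and 0.490% of the strongest bin, that is 43 peaks.

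The members formed the lowest step of a graded series. Peaks overlapped in 1 other list (9851) had a median fold enrichment of 3.58, those overlapped in 2 lists (6901) had 4.22, and those overlapped in all 3 (8850) had 6.40. OCI-AML3 was the line that most often shared a Molm13 peak alone, with 8341 peaks (23.8% of the Molm13 list), beside 1190 for K562 and 320 for HL-60. HL-60 has the shortest list, with 20733 peaks against 37531 in OCI-AML3 and 37424 in K562. The other lines had sets of the same kind: 6357 HL-60-only peaks (30.7% of its list), 10931 OCI-AML3-only peaks (29.1%) and 20949 K562-only peaks (56.0%), and the latter pair were wider than the Molm13-only peaks, with medians of 724 and 904 bp.

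**Figure D1:**
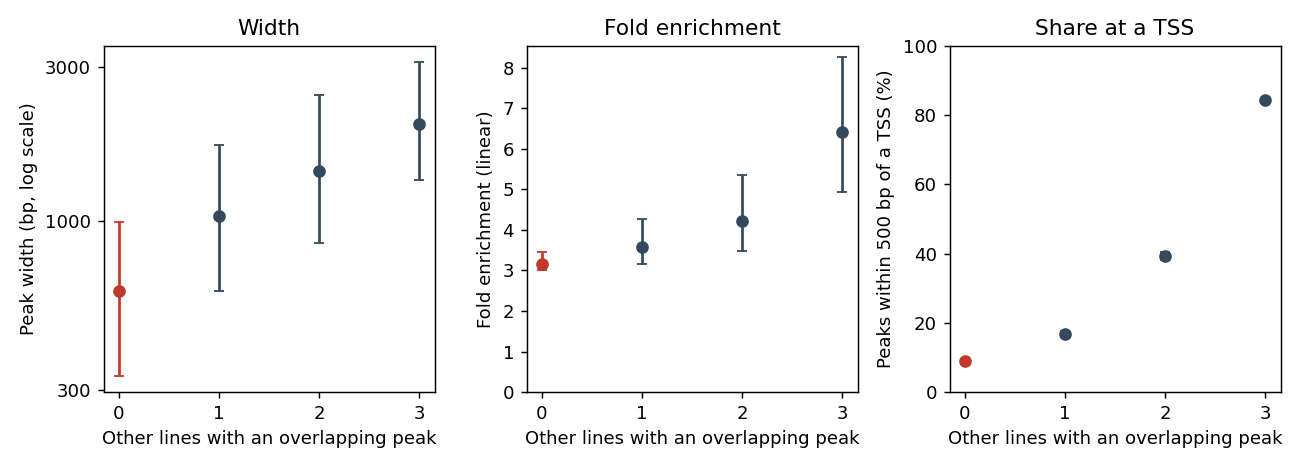
Molm13 peaks by the number of other lines with an overlapping peak (0 is Molm13-only, red): median width in bp on a log axis and median fold enrichment, with bars for the quartiles, and the percent of peaks within 500 bp of a transcription start site, with 95% Wilson intervals. All 3 measures are lowest for the Molm13-only peaks, at 608 bp, 3.17 and 8.96%, and highest for peaks in all 4 lines.

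Fold enrichments at the edge of the rule were alike on both sides. The 20 members with the smallest gap lay 0 to 8 bp from a peak of another line and had a median fold enrichment of 3.07 (1.90 to 4.25). The 20 remaining peaks with the smallest overlap shared 1 to 9 bp and had a median of 3.04 (2.70 to 4.21). A transcription start site lay within 500 bp of 5 of these 20 members and of 2 of these 20 remaining peaks. Most members were further away: the median gap to the nearest peak of any other line was 7441 bp, 1147 members (12.1%) lay within 1 kb, and 1424 (15.0%) had no such peak within 50 kb. By line, the median gap was 12430 bp to OCI-AML3, 25248 bp to K562 and 29708 bp to HL-60. Members that were both over 10 kb from any other line's peak and under a q-value of 0.001 numbered 368. A remaining peak of Molm13 itself lay within 50 kb of 70.8% of the members.

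Molm13-only peaks lay away from transcription start sites (TSSs). A TSS of any annotated gene was within 500 bp of 848 members (8.96%, 8.40 to 9.55) and of 11839 remaining peaks (46.2%, 45.6 to 46.9). The difference was -37.3 percentage points (95% Newcombe interval -38.1 to -36.4). Peaks of 1 library are not replicates, so the interval describes this pair of lists. As wide and strong peaks both reach a TSS more readily and are overlapped more readily, the shares were also set side by side within bins of width and of strength. These bins are broad, and width and strength were not matched together. The top bin of fold enrichment ran from 5.35 to 22.7, with members up to 8.61. The top bin of width ran from 2009 to 59338 bp, with members up to 10556 bp. The members' share was lower in each of 4 equal bins of width, with a difference of -18.2 points among the narrowest peaks (7.62% and 25.8%) and -39.8 among the widest (19.1% and 58.9%). It was also lower in each of the 4 bins of fold enrichment, from a difference of -8.83 points in the lowest bin (8.62% and 17.5%) to -56.4 in the highest (18.6% and 75.0%). The HL-60-only, OCI-AML3-only and K562-only peaks had TSS shares of 8.31%, 11.3% and 16.4%.

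**Figure D2:**
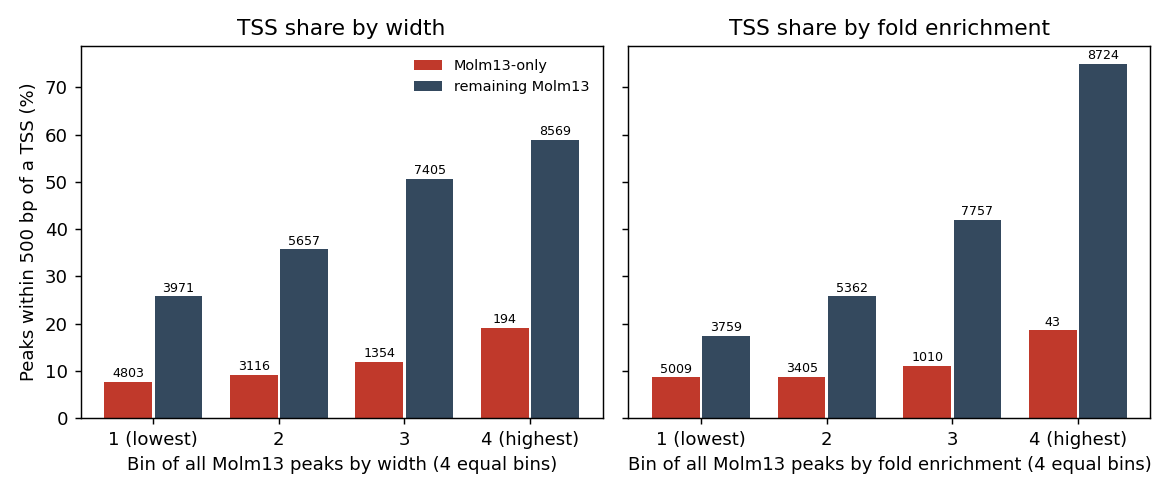
Percent of Molm13-only (red) and remaining (dark) peaks within 500 bp of a TSS, in 4 equal bins of all Molm13 peaks by width (left) and by fold enrichment (right), with the number of peaks above each bar. The Molm13-only bar is the lower of the pair in every bin, and the highest bin of fold enrichment holds 43 Molm13-only peaks.

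Introns held most of the members. Of the 9467, 5081 (53.7%) had their place in an intron, 2561 (27.1%) between genes and 977 (10.3%) in an exon away from a TSS, beside 29.8%, 16.5% and 7.49% of the remaining peaks. These shares and the distances below are taken over all peaks, so the TSS difference enters them. Away from TSSs there were 8619 members and 13763 remaining peaks. Of the latter, 7619 lay in introns, 4226 between genes and 1918 in exons. On that base, the intergenic and exon shares were not higher in members. The median distance to the nearest TSS of a protein-coding gene was 15842 bp for members and 3794 bp for remaining peaks. Within 5 to 50 kb of such a TSS lay 46.6% of the members and 32.6% of the remaining peaks. OCI-AML3-only peaks had a close spread, with 55.4% in introns and a median distance of 18521 bp.

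The strongest members were mostly narrow and scattered over the genome. The highest fold enrichment, 8.61, belonged to a peak of 291 bp between genes on X, chrX:222122-222412, with PLCXD1 as the nearest coding gene at 53910 bp. An exonic peak of CACNB1, a calcium channel subunit, followed at 8.50 (chr17:39174887-39175871, 985 bp). A peak in an intron of ARHGEF3 stood at 8.01 (chr3:56821755-56822412, 658 bp). A peak at 7.25 held a TSS of NLRP2, an inflammasome-family gene, and the start of the processed pseudogene RPL36AP50 (chr19:54973431-54974339, 909 bp). The fifth, at 7.18, lay 28840 bp from ANHX (chr12:133264717-133265391, 675 bp). All 5 were under 1 kb wide. Among the 43 members in the strongest bin of fold enrichment, 18 were at most 500 bp wide, while 132 of the 8724 remaining peaks in that bin were so narrow.

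A few strong members were wide as well. The widest of all, 10556 bp with a fold enrichment of 5.42, lay within the body of DYNC1I1, which encodes a chain of the dynein motor (chr7:96075653-96086208). Its neighbour 1233 bp away was the next widest, 7719 bp with 4.54 (chr7:96087442-96095160). The nearest coding TSS was that of SLC25A13, a mitochondrial carrier for aspartate and glutamate, at 35790 and 26838 bp. Together with members of 1654 bp (4.61) and 543 bp (3.53), this made 4 Molm13-only peaks over 48046 bp. The widest came within 480 bp of a peak of another line, and the other 3 were 12269 to 47983 bp away from any. The next in width lay near C16orf74 (4576 bp, fold enrichment 3.34), TENM3 (4426 bp, 3.63, with the TSS 1991981 bp away) and GNLY (4221 bp, 3.33). Outside the rule for named peaks, and chosen after its values were seen, a member of 2749 bp with a fold enrichment of 5.43 lay in an intron of IL2RA, the alpha chain of the interleukin-2 receptor (chr10:6044547-6047295). IL2RA had 5 Molm13-only peaks among 11 within 50 kb of its TSSs, 1 of them at the promoter, and in the same span K562 had 7 peaks, OCI-AML3 6 and HL-60 none.

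The members were spread over many genes. In all 5673 coding genes were nearest to at least 1 of them, 3655 of these to just 1, 833 to 3 or more and 200 to 5 or more. FLRT2, an adhesion protein gene in a gene-poor region, led with 16, though its farthest member was 1541767 bp away and 3 lay within 50 kb. JARID2, a cofactor of the Polycomb repressor PRC2, followed with 14, beside 31 remaining peaks nearest to it, so that 31.1% of its Molm13 peaks were Molm13-only, near the 27% over the whole list. GSDMC had 13, none within 50 kb of its TSSs, on chromosome 8, to which the HL-60 list gives 1.72% of its peaks and the Molm13 list 4.72%; the part of this in the count was not tested. H3-7, a histone gene, had 13, most of them in repeat sequence described with the domains. TENM2, WNK1, RUNX1, MAT2B, FOXP1 and ADK had 12 each. BCL11A, MRPL39 and FNDC3B had 11, and ERBB4 and FRY had 10. The share of Molm13-only peaks differed between these genes. As they were picked for their counts of members, which favours high shares, the shares are a description. It was 28.6% at RUNX1 and 10 of 37 at FRY, close to the share over the whole list, while it was 80.0% at FLRT2, 71.4% at ERBB4, 63.2% at WNK1 and TENM2 and 57.1% at FOXP1. A count by nearest gene also takes in distant peaks. The compact cases were WNK1, with all 12 within 50 kb of its TSSs, and FNDC3B and FOXP1, with 11 each.

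A Molm13-only peak lay within 50 kb of a TSS of 8915 of the 19970 coding genes (44.6%), and 3 or more lay there for 1251 (6.26%). Against these shares stand 13 lists of genes for blood cell types and pathways. Of 21 genes known as targets of KMT2A fusions 18 (85.7%) had at least 1 member and 6 (28.6%) had 3 or more. Molm13 peaks of any kind lay near 20 of the 21 genes, as near 82.0% of all coding genes. Of 196 Molm13 peaks within 50 kb of their TSSs 48 (24.5%) were Molm13-only, and for all coding genes that share was 23.9% (6882 of 28836). The proportion of Molm13-only peaks near the fusion targets was thus close to that near all coding genes.

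FLT3 had 8 Molm13-only peaks among 17 within 50 kb, 7 of them inside the gene (chr13:28003274-28100592). Their fold enrichments ran from 2.57 to 3.49, and 4 of the 8 had a q-value above 0.05, beside 14.9% of all members. The closest stopped 2 bp short of a peak of another line. The next lay 280 and 419 bp from one, and the rest 1931 to 12996 bp. The OCI-AML3 list had 14 peaks in the same span, HL-60 7 and K562 1. On chromosome 13 the K562 list is thin (479 peaks, 1.28% of its list, beside 2.88% in Molm13), and its part in this was not tested. PBX3, which encodes a cofactor of HOX proteins, had 7 of 21, with fold enrichments of 2.86 to 3.82. OCI-AML3 had 22 peaks there, while HL-60 and K562 had 1 each. MEF2C, a MADS-box transcription factor gene, had 7 of 15 (median fold enrichment 3.78), with 20 peaks in OCI-AML3, 9 in K562 and 1 in HL-60. Its strongest member, chr5:88870478-88871061 at 5.48, stopped 69 bp short of a peak of another line. CDK6, a cell cycle kinase gene, had 7 of 29 (2.87 to 3.34). JMJD1C, of the histone demethylase family, had 4 of 28 (2.88 to 3.16) and BCL2, the inhibitor of apoptosis, 3 of 17 (3.07 to 4.02). All 6 genes also had remaining Molm13 peaks in the same span, from 8 at MEF2C to 24 at JMJD1C.

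The myeloid lists followed. Of 30 monocyte and macrophage genes 18 had a member, and 22.5% of their peaks were Molm13-only. CD86, a costimulatory ligand, had 5 (3.01 to 3.66), CSF1R, the receptor for macrophage colony-stimulating factor, had 4 (2.93 to 3.49) and ITGAM, the CD11b integrin, had 3 (3.35 to 3.61). Counted by nearest coding gene, the members numbered 4 for CD86, 2 for CSF1R and 3 for ITGAM. SIGLEC1, a macrophage lectin gene, had a promoter marked in Molm13 only, with a fold enrichment of 2.89 and the nearest other peak 31728 bp away. Of 14 myeloid transcription factor genes 10 (71.4%) had a member. RUNX1 and ETV6 had 7 each, and IKZF1 and STAT5B had 4 each. A q-value above 0.05 was found for 2 of those at IKZF1, 2 at STAT5B, 1 at RUNX1 and 0 at ETV6. STAT5B was the nearest coding gene to 2 members. In this list 20.8% of the peaks were Molm13-only, somewhat under the background. For the primary granule genes the count was 3 of 9 and the share of Molm13-only peaks 16.7%. MPO, the myeloperoxidase of granulocyte precursors, had 3 members within 50 kb. These lay 25576 to 37526 bp from its TSSs, and each was nearer to another coding gene. For stem and progenitor genes the count was 7 of 12 and the share 28.6% of 35 peaks, with 4 near MSI2, an RNA-binding protein gene. For STAT5 targets the count was 6 of 10, but 11 of their 67 peaks were Molm13-only (16.4%, under the 23.9% near all coding genes). SOCS1, a feedback inhibitor of cytokine signalling, and OSM, a cytokine, had 3 each within 50 kb. None of those at SOCS1, and 1 of those at OSM, had the named gene as the nearest coding gene.

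The lists of other lineages were mixed. Erythroid genes had a member in 2 of 16 cases, megakaryocyte genes in 2 of 7 and B cell genes in 3 of 8. T cell genes had one in 7 of 10, and 7 of only 18 Molm13 peaks near them were Molm13-only (38.9%). CD3D, CD3E and CD3G are neighbours and share their members, so these genes are not separate cases, as also holds for the HOXA genes among the fusion targets. MHC class II genes had one in 6 of 10 cases, and neighbours such as HLA-DRB1, HLA-DQA1 and HLA-DQB1 also share members. The inflammatory and NF-kB genes (6 of 15) and the genes of AP-1 (6 of 12) had the lowest proportions among their peaks, 11.6% of 69 and 9.46% of 74, well under the 23.9% near all coding genes.

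Few promoters were marked in Molm13 only. For this, a gene needed a Molm13-only peak within 500 bp of one of its TSSs. Genes with a peak of the other 3 lists within 500 bp of any of their TSSs were left out. The count is thus narrower than the 561 members within 500 bp of a coding TSS. Such promoters were found for 124 coding genes, 0.621% of all 19970 and 1.15% of the 10794 with a Molm13 peak at a TSS. Their 120 distinct peaks had a median fold enrichment of 3.26 (2.61 to 5.40), beside 6.34 for the other Molm13 promoters, and 17 of the 124 had a q-value under 0.001. CpG sites were sparse in these peaks: over their central 500 bp the ratio of observed to expected CpG was 0.301 at the median. For the peaks at the other promoters it was 0.743. The window follows the peak and not the start site. The most enriched of the 124 were TTC12 (5.40) and OXER1 (5.38), the former needed for assembly of ciliary dynein and the latter a receptor for oxidised fatty acids. SNX32 stood at 4.71. IL10, an anti-inflammatory cytokine gene, stood at 4.45, TNFRSF9, which encodes a costimulatory receptor, at 4.35 and CCR6, which encodes a chemokine receptor, at 4.03. Also among the 15 were GARIN1B, GPX2, DNAAF4, CYP2S1, FOXO3B, B3GALNT1, SMIM33 and ACY3, between 4.44 and 3.92. The peak at HOXA4, outside the rule and chosen after its values were seen, had a fold enrichment of 3.72 (chr7:27131010-27132135) and was the strongest member within 50 kb of HOXA3, HOXA5, HOXA7, HOXA9 and HOXA10.

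RefSeq held a promoter sequence for 88 of the 124 genes, and in 32 the Molm13-only peak overlapped it. The 250 bases before the start site are printed for 2 of these, CCR6 as a gene among the 15 and IL2RA because its intronic member was described above. They are given 5′ to 3′ on the strand of the gene, with motif matches in capitals (a STAT and a MEIS match at CCR6, the latter spelled TGACAG and here on the opposite strand).
CCR6 promoter, chr6:167122503-167122752, plus strand: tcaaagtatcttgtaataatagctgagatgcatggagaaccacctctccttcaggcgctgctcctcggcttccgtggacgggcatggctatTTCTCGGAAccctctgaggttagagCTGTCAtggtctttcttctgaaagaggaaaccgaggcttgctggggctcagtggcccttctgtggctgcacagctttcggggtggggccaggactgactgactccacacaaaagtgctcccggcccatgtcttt
IL2RA promoter, chr10:6062368-6062617, minus strand: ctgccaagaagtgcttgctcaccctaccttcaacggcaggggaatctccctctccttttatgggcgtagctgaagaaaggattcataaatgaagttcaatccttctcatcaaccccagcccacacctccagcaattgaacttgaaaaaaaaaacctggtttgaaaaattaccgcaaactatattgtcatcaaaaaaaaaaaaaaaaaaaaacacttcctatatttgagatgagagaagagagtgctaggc
The CCR6 peak spans 2608 bp (chr6:167120842-167123449) with the nearest peak of another line 25074 bp away. The IL2RA promoter peak was weaker, at 3.06 (chr10:6061222-6063205), with a peak of another line 1828 bp away, and no motif of the 11 was in its window.

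Molm13-only peaks seldom stood in rows. Joined where at most 10 kb apart, they fell into 8678 domains, of which 7987 held a single peak, 621 a pair and 70 held 3 or more. Those 70 comprised 238 members, and their fold enrichment (median 3.15) was like that of single peaks (3.17). The median span was 14490 bp, 55 of the 70 lay wholly or in part within the body of a coding gene, and 32 had no peak of any other line inside.

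The domain with most peaks, 7 within chr1:143192866-143228074, was made of satellite-like repeat. Its nearest coding gene, H3-7, was 677719 bp away at the closest, and fold enrichments were 2.20 to 2.70. The pentamer GGAAT, counted on both strands, occurred 46.7 to 51.6 times per kb in its peaks, while the median over all members was 1.71. The centre of its first peak shows the pattern, with GGAAT in capitals.
H3-7 domain, chr1:143193197-143193346, plus strand: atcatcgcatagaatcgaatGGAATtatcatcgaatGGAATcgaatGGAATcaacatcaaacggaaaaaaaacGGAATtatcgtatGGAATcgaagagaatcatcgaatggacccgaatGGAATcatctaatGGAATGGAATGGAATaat
The domains near CWH43 (4 peaks, the weakest at 2.01) and on chromosome 10 (4 peaks) were of the same make, with 107 to 120 copies per kb. More than 20 copies per kb were found in 41 members (0.433%) and in 52 remaining peaks (0.203%). The authors kept uniquely mapped reads, and the part of repeat sequence in these calls was not tested. This count was added after the data were seen.

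The other leading domains lay in or beside genes. As 15 domains held 4 peaks each, those with the largest summed width were taken. An intronic row of 6 peaks in TRERF1, a transcriptional regulator, spanned 34808 bp (chr6:42294478-42329285), and its strongest peak reached 4.77. Inside this row lay 3 peaks of HL-60, 1 each of OCI-AML3 and K562, and 1 remaining Molm13 peak. ST3GAL4, a sialyltransferase, held 5 peaks over 24666 bp (3.20 to 4.30), 1 of them at a TSS. Among them lay 1 remaining Molm13 peak and 1 peak each of HL-60 and OCI-AML3. WNK1, a kinase that regulates ion transport, held 5 over 18602 bp (2.89 to 3.42), with 2 OCI-AML3 peaks inside. Within 50 kb of the WNK1 TSSs, 14 of the 23 Molm13 peaks were Molm13-only. ETV6, an ETS-family repressor recurrently rearranged in leukaemia, held 5 over 18205 bp (3.06 to 3.55). Inside that domain lay 2 remaining Molm13 peaks, 2 peaks of OCI-AML3 and 1 of HL-60, and OCI-AML3 had 13 within 50 kb of it. PTGIS, which encodes prostacyclin synthase, held 4 over 15211 bp (3.22 to 4.08), and no peak of the other lines lay inside. Within 50 kb of the PTGIS TSSs, 9 of 11 Molm13 peaks were Molm13-only, the strongest at 4.26, while OCI-AML3 had 2 peaks and HL-60 and K562 had none. Domains of 4 peaks also lay at ATG16L2 and FCHSD2 (2.98 to 3.63, with 1 HL-60 peak inside) and at XXYLT1 (2.82 to 3.40). Another (3.14 to 4.12) was nearest to DUSP7, a phosphatase of MAP kinases, and lay partly in the body of POC1A. Those at XXYLT1 and near DUSP7 held no peak of the other lines.

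Sequence was not used by the rule, but the rule favours narrow and weak peaks. The differences below were not set at like width or strength. Away from TSSs, the 8619 members and 13763 remaining peaks were compared over the central 500 bp. That window runs past the edges of narrow peaks, which were more common among members (lower quartile of width over all members 330 bp, beside 860 bp). The members were a little poorer in G and C (median 42.8% and 44%) and in CpG, with an observed to expected ratio of 0.198 (quartiles 0.119 and 0.297) and 0.213 (0.132 to 0.319). At TSSs the gap was wide, with medians of 0.243 and 0.686. Of 11 motifs searched on both strands, the one for PU.1 (GAGGAAGT), the master regulator of myeloid cells, was in 3.88% of the members and 7.95% of the remaining distal peaks, a difference of -4.07 points (-4.68 to -3.46). AP-1 (TGANTCA) was in 16.3% and 20.6% (-4.25, -5.28 to -3.21). RUNX (TGTGGTT) was in 10.2% and 13.2% (-2.95, -3.80 to -2.09), and IRF-ETS (GGAANNGAA, which overlaps the letters of PU.1 in part) in 13.7% and 15.9% (-2.21, -3.16 to -1.26). These 4 were lower in members within each of 4 bins of G and C content. CTCF (CNAGNGGGC) and the E-box (CACGTG) were lower too, with differences of -1.23 and -1.06 points, but not in every such bin. For the other 5 the interval of the difference included 0: CEBP (TTGCNNCAA, in 4.84% of members), the GATA motif (AGATAA, 28.7%), STAT (TTCNNNGAA, 16.3%), MEIS (TGACAG, 30.0%) and CREB (TGACGTCA, 0.197%). Within the 4 bins of G and C content the GATA difference was -1.56, -2.10, -1.90 and 0.324 points, against 0.566 without bins. Of these 5 motifs, only CREB kept the same sign in all 4 bins. GATA was in 7009 of the 17504 distal K562-only peaks (39.3% to 40.8%). In the 659 distal members with a q-value under 0.001, PU.1 stood at 5.01% (3.59 to 6.95) and RUNX at 12.9% (10.6 to 15.7). The sets of the other lines were as low or lower in part: PU.1 was in 3.26% of the distal HL-60-only, 3.85% of the K562-only and 5.98% of the OCI-AML3-only peaks, and RUNX in 9.30%, 9.73% and 13.2%. With windows of 1 kb the intervals for MEIS (-2.25, -3.60 to -0.905) and GATA (1.41, 0.0601 to 2.75) no longer included 0, nor did that for CREB with windows of 300 bp (-0.150, -0.243 to -0.0545). A match of letters is not a bound site.

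**Figure D3:**
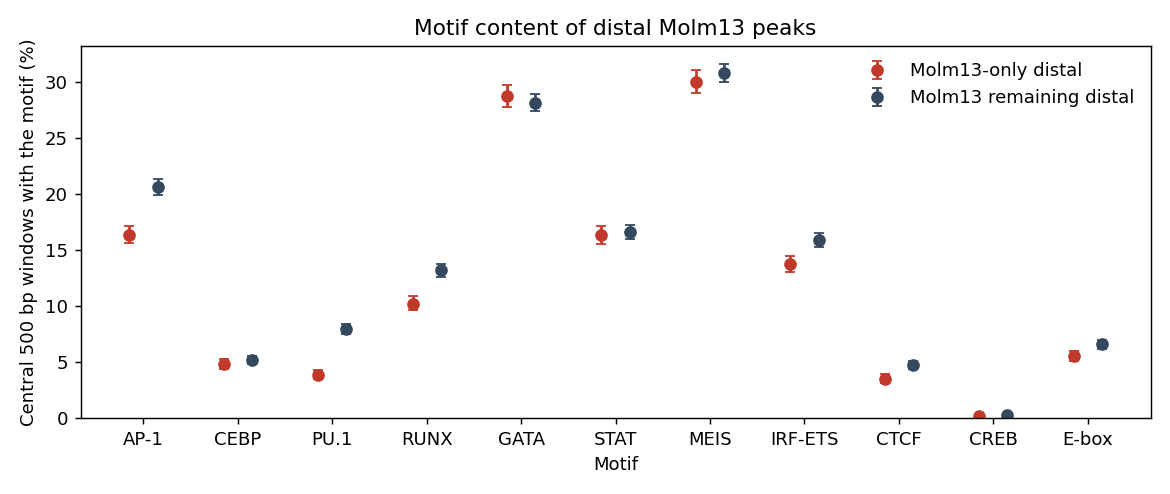
Percent of distal Molm13 peaks whose central 500 bp hold each of 11 motifs, for Molm13-only (red) and remaining (dark) peaks, with 95% Wilson intervals. AP-1, PU.1, RUNX and IRF-ETS lie lower in the Molm13-only peaks, while GATA is at 28.7% and 28.1%.

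The Molm13-only share of Molm13 peaks varied between chromosomes. It was lowest on X (19.1%, 16.5 to 21.9), 16 (20.4%) and 19 (22.3%), and highest on 13 (33.7%, 30.8 to 36.7), 4 and 18 (33.2% each). On chromosome 13 the K562 list is thin, as given above. On chromosome 8 the HL-60 list held 357 peaks, and the Molm13-only share there was 26.4% (24.4 to 28.6), close to the 27% over all chromosomes.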

How the data were processed

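The deposited files are broad peak lists (hg38) of 1 H3K27ac ChIP-seq library for each of 4 lines. Chromatin was sheared to fragments of 200 to 700 bp. Per the labels (the submitters' processing notes), reads were trimmed with Trim Galore 0.4.5 and aligned with Bowtie2 2.3.4, of which the study's methods name another version, and, for uniquely mapped reads, peaks were called by the authors with MACS2 2.1.1 in broad mode with a q-value limit of 0.05. A broad region may carry a q-value above that limit. The control library of each call is not given in the sources used here. The deposited columns hold a display score, the fold enrichment as a linear ratio, and p-values and q-values written as −log10. Because calls depend on depth, which is unknown, a peak absent from a list is not evidence of no acetylation.

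Peaks outside chromosomes 1 to 22 and X were left out (60 to 137 a list). Overlap needed 1 bp. GENCODE 44 gave the genes and TSSs (within 500 bp counts as at a TSS); promoters printed are from RefSeq (GRCh38.p14). Shares have 95% Wilson and differences Newcombe intervals. The distance, overlap and motif steps were tested on simulated data and recovered every planted case, and bedtools 2.31.1 gave the same 9467 members. Sequences were read with pysam 0.24.0 and tables handled with pandas 2.3.3 under Python 3.11.15. The members, gene lists and motifs were chosen with earlier results of these data known. Named were the 5 strongest and 5 widest members, the 15 genes nearest to most members, the 15 strongest Molm13-only promoters (1 of them is not reported here), the 10 domains with most peaks (ties by summed width), and list genes with 3 or more members within 50 kb or a Molm13-only promoter. The other 15 of the 19 samples (inputs, other antibodies and libraries with LTR2B guides, among them a deposited list of dCas9 peaks) were not used here. Alternatives are given in the closing section.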

Additional observations from a re-analysis of the deposited data

How the results depend on the processing

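Of 105 alternative values 37 moved by less than the counting interval or by under 1.5 times for counts, and 68 moved by more. The GATA motif difference changed sign, from 0.566 to -0.0492 points with 300 bp windows, with 0 inside both intervals. The differences for AP-1, PU.1, RUNX, IRF-ETS, CTCF and the E-box stayed negative with windows of 300 bp and 1 kb. The share of Molm13-only peaks was 25.2% with q under 0.05 in all lists, 11.2% with q under 0.001 in all lists, 4.37% with that limit on Molm13 alone, 34.2% when sharing needed 50% of the peak covered, 23.7% with the other lists widened by 1 kb, and 16.4% with equal numbers of the strongest peaks. It was 30.4% against HL-60 and OCI-AML3, 50.8% against HL-60 and K562 and 27.9% against OCI-AML3 and K562, so leaving out OCI-AML3 moved it most. The members' TSS share was 14.6% with q under 0.001 in all lists, 11.7% with it on Molm13, 11.2% with 50% covered, 12.6% with equal numbers, 10.0% without K562, 12.6% without OCI-AML3, 12.5% with a 1 kb TSS window and 5.93% with coding TSSs. The difference in TSS share stayed negative, at -38.1 points (q under 0.05), -47.9 (q under 0.001 in all lists), -47.5 (on Molm13), -36.1 (widened), -46.1 (equal numbers), -48.0 (without OCI-AML3), -36.2 (1 kb window) and -34.2 (coding TSSs). Median width was 582 bp (q under 0.05), 730 bp (q under 0.001 in all lists), 380 bp (on Molm13), 732 bp (50% covered), 623 bp (without K562) and 820 bp (without OCI-AML3). The difference in CpG ratio was -0.0300 (q under 0.001 in all lists), -0.0262 (on Molm13), -0.0274 (equal numbers), -0.0305 (without OCI-AML3) and -0.0206 (300 bp windows), against -0.0155.

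Counts depended most on the settings. Molm13-only promoters numbered 17 with the strict limit on Molm13, 190 without K562 and 622 without OCI-AML3, against 124. Domains of 3 or more numbered 3 with q under 0.001 in all lists, 0 with it on Molm13 alone, 184 with 50% covered, 15 with equal numbers, 109 without K562, 684 without OCI-AML3, and 21 and 201 with joining at 5 and 20 kb, against 70. The share of coding genes with a member within 50 kb was 41.2% (q under 0.05), 14% (q under 0.001 in all lists), 5.49% (on Molm13), 51.9% (50% covered), 40.6% (widened), 21.5% (equal numbers), 49.2% (without K562), 59.2% (without OCI-AML3), 45.7% (without HL-60), and 27.3% and 62.2% at 20 and 100 kb. Fewer peaks enter under the stricter limits; other causes were not tested. No paired analysis was possible because each line used had 1 library. Unknown read depth limits every statement on absent peaks.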
